A study of Mus musculus with 16 samples.

Results

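Inflammasome, gasdermin and IL-18 genes were followed across organoid cultures with and without Atg16l1, untreated or exposed to IL-22. The members were chosen by name: the cytokine gene Il18, the caspase genes Casp1 and Casp4, the adaptor gene Pycard, and the gasdermin genes Gsdmd, Gsdmc2, Gsdmc3 and Gsdmc4. These are 8 of the 49326 genes of the count table that matched a gene symbol. The filter on low counts kept 12559 genes for testing, and 5 of the 8 members passed it while Gsdmc2, Gsdmc3 and Gsdmc4 did not.

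RNA sequencing was performed on small intestinal organoids, which are epithelial structures grown from crypts in Matrigel with organoid growth medium. The study asked how loss of the autophagy gene Atg16l1 in the epithelium alters the response to IL-22. Organoids called Atg16l1 ΔIEC came from mice in which a villin-driven cre deletes the floxed Atg16l1 gene in intestinal epithelial cells. Organoids called Atg16l1 fl/fl came from cre-negative mice with the same floxed alleles, and the mice, on a C57BL/6 background, were 8 to 12 weeks old with littermates as controls. Each genotype was left untreated or given recombinant murine IL-22 at 10 ng/ml for 24 h, which gave 4 groups of 4 cultures. The labels number the organoids 1293 and 1294 for fl/fl and 1290 and 1292 for ΔIEC, and each number was treated as 1 organoid line with 2 cultures per treatment. In every group, cultures 1 and 2 belong to the lower-numbered line and cultures 3 and 4 to the other. With n = 4 cultures from 2 lines, p-values measure the spread between cultures, and genotype cannot be told apart from differences between lines.

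Counts on genes in cultures 1 to 4 were 3478243, 4024054, 2135000 and 3673205 in fl/fl without IL-22, and 2704302, 4606507, 5574860 and 3437907 in fl/fl with it. Untreated ΔIEC cultures had 3976507, 3847890, 2347992 and 2268697. Treated ΔIEC cultures had 2573720, 3562967, 3369717 and 3520310. Levels are given as CPM, counts divided by library size and scaled for library composition, with the SD over n = 4 cultures.

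Inflammasomes are cytosolic complexes in which a sensor protein, often through the adaptor ASC (the product of Pycard), activates caspase-1. Caspase-1 matures IL-18 and cleaves gasdermin D, whose released fragment forms pores in the plasma membrane, and mouse caspase-11, encoded by Casp4, cleaves gasdermin D in response to cytosolic lipopolysaccharide. Intestinal epithelial cells express IL-18 and several of these sensors, and epithelial inflammasomes take part in defence against enteric bacteria.

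Atg16l1 itself was examined first. Its level in cultures 1 to 4 was 38.9, 31.6, 41.2 and 49.2 CPM in fl/fl left untreated, and 39.2, 40.0, 51.8 and 48.8 CPM after IL-22. In ΔIEC it was 2.59, 2.71, 1.21 and 4.15 CPM untreated, and 0.810, 5.96, 0.302 and 0.289 CPM when treated. Every ΔIEC culture lay below every fl/fl culture, as the labels have it. The difference on the log2 scale was -3.90 (SE 0.37, edgeR adjusted p = 1.27e-06) untreated and -4.51 (adjusted p = 2.25e-07) with IL-22. The second value ran from -6.59 without treated ΔIEC culture 2 to -4.12 with another culture left out. Over all alternatives it ran from -7.10 to -3.57 and was called in each. The untreated call was lost with the cultures of a line summed (-3.93, adjusted p = 0.0132). As a check of the treatment, Reg3b, which encodes an antimicrobial lectin, rose from 12.8 ± 2.16 to 19160 ± 1048 CPM in fl/fl and from 11.2 ± 2.12 to 26820 ± 4833 CPM in ΔIEC. Reg3g, a related lectin gene, had log2 fold changes of 9.67 and 10.09, and Socs3, a feedback inhibitor of STAT3 signalling, of 4.53 and 4.31.

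IL-22 raised Il18, Casp4 and Gsdmd in both genotypes, while Pycard and Casp1 did not pass the test in either. Results were called at an adjusted p under 0.01 in edgeR's quasi-likelihood F test, with Benjamini-Hochberg adjustment over all 12559 tested genes. In fl/fl organoids 3 of 5 tested members rose and 0 fell, beside 10.6% of all tested genes that rose and 10.2% that fell. With the line as a block, Pycard passed as higher (adjusted p = 0.00902) and Casp1 as lower (adjusted p = 0.00101) in fl/fl, so that 4 of 5 tested members rose and 1 fell there, beside 15% and 15.6% of all tested genes. In ΔIEC organoids 3 of 5 rose and 0 fell, beside 9.83% and 7.65% of all tested genes. Members whose treated and untreated cultures did not overlap, with the treated ones higher, numbered 3 in each genotype (Il18, Casp4 and Gsdmd), and the same held for 15.4% of tested genes in fl/fl and 14.1% in ΔIEC. The median log2 fold change of the 5 tested members was 0.56 in fl/fl and 0.97 in ΔIEC, and over all tested genes it was -0.05 and -0.01. Since the organoids hold several epithelial cell types, fewer cells of a type and less RNA per cell cannot be told apart in any of these values.

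Between the genotypes, Gsdmd was lower in untreated ΔIEC than in untreated fl/fl organoids, and no member passed the test among treated organoids. Of 5 tested members 0 were higher and 1 lower without IL-22, beside 3.78% and 5.98% of all tested genes. Il18 was the member whose untreated ΔIEC cultures all lay below the fl/fl cultures, as did 12.6% of tested genes. With IL-22, 9.91% of tested genes were higher and 9.84% lower in ΔIEC, and edgeR called 0 of 5 members. At an unadjusted p under 0.05 in edgeR there were 0 members, beside 44% of all tested genes. At an adjusted p under 0.01, DESeq2 and limma-voom each called 0 members. For the interaction, the test of whether the IL-22 effect differs between genotypes, edgeR called 0 members, beside 0.00796% of tested genes higher and 0.00796% lower. At an unadjusted p under 0.05 there were 2 members (Casp1 and Gsdmd), beside 7.26% of all tested genes, and DESeq2 and limma-voom each called 0. The IL-22 and genotype comparisons share cultures, so their values are set side by side below and are not independent of each other.

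**Figure D1:**
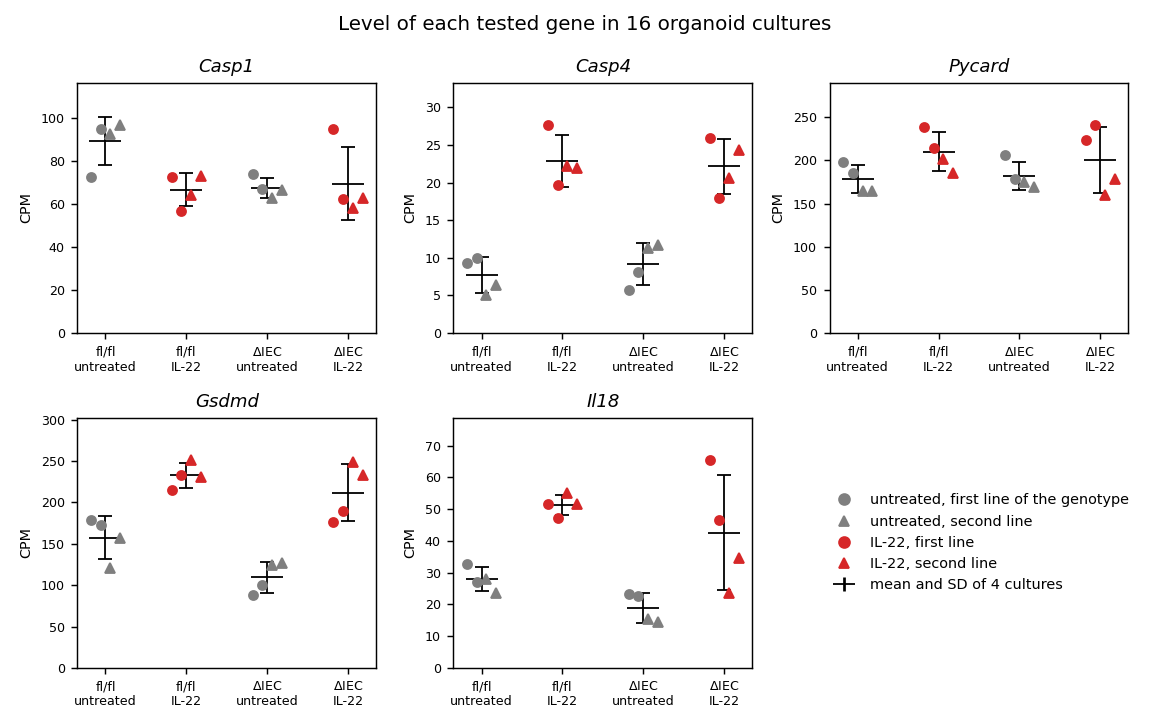
Level in CPM (vertical axis, from 0) of the 5 tested members in each of the 16 cultures by group (horizontal axis), with symbols for the lines and crossbars for the mean and SD of 4 cultures. Treated cultures of Casp4, Gsdmd and Il18 lie above the untreated cultures of the same genotype, and those of Pycard and Casp1 overlap with them.

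Among the 5 tested members, levels were compared per kilobase of exon. The length was that of the exons of all annotated transcripts merged, 3800 bases for Pycard and 2377 for Gsdmd. This can exceed the length of the RNA present, so the order of the genes depends on it. In untreated fl/fl organoids Gsdmd had 66.3 ± 10.9 CPM per kb, Casp1 59.7 ± 7.51, Pycard 47.0 ± 4.33, Il18 27.0 ± 3.67 and Casp4 2.07 ± 0.638. Cultures of Gsdmd, Casp1 and Pycard overlapped between neighbours in this order, whereas Il18 and then Casp4 lay apart below them. In untreated ΔIEC organoids Pycard (48.0 ± 4.33), Gsdmd (46.1 ± 7.95) and Casp1 (45.2 ± 3.15 CPM per kb) again overlapped, above Il18 (18.4 ± 4.54) and Casp4 (2.47 ± 0.760). With IL-22, Gsdmd stood alone at the top in fl/fl (98.0 ± 6.31 CPM per kb) and in ΔIEC (89.2 ± 14.5). Il18 then had 49.8 ± 3.10 CPM per kb in fl/fl and 41.3 ± 17.4 in ΔIEC, overlapping with Pycard (55.3 ± 5.92 and 52.9 ± 10.0) and Casp1 (44.6 ± 5.14 and 46.5 ± 11.3). Casp4 had the lowest level of the 5 in all 4 groups, 6.16 ± 0.927 and 5.97 ± 0.979 CPM per kb with IL-22.

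Upstream of the members, the sensor genes that passed the test with IL-22 went both ways, and the others did not pass. Of 13 listed sensors 10 were tested, and in fl/fl 3 rose and 2 fell with IL-22 (median log2 fold change -0.12), while in ΔIEC 2 rose and 1 fell (median -0.04). For the IL-22 counts of this list and those below, 10.6% of all tested genes rose and 10.2% fell in fl/fl. In ΔIEC these shares were 9.83% and 7.65%. Nlrp6, which encodes a sensor abundant in the intestinal epithelium and is the best expressed of the list per kb, fell from 359 ± 17.5 to 188 ± 15.1 CPM in fl/fl and from 316 ± 16.8 to 178 ± 16.2 CPM in ΔIEC. Its log2 fold changes were -0.93 (SE 0.08, adjusted p = 3.11e-08) and -0.83 (SE 0.08, adjusted p = 1.41e-07). Nlrc4, whose product assembles an inflammasome after NAIP proteins bind bacterial flagellin or secretion system proteins, rose from 34.8 ± 5.93 to 53.6 ± 4.35 CPM in fl/fl and from 33.9 ± 2.83 to 60.6 ± 3.47 CPM in ΔIEC. Naip1, the gene of one of these receptors, rose from 44.5 ± 11.8 to 85.8 ± 4.87 CPM and from 50.3 ± 2.55 to 97.4 ± 13.2 CPM (log2 fold changes 0.93 and 0.95). Without line 1293 the Nlrc4 change in fl/fl was 0.51 (adjusted p = 0.01002), and without line 1290 the Naip1 change in ΔIEC was 0.79 (adjusted p = 0.0105).

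Naip6, Nlrp10 and Nlrp1b each passed in at least 1 comparison, and edgeR's interaction test called none of the list. Naip6 had log2 fold changes of -0.08 in fl/fl and -0.47 in ΔIEC (adjusted p = 0.0186), the second passing with the line as a block (-0.46, adjusted p = 0.000511). Among treated organoids Naip6 was lower in ΔIEC, 34.7 ± 3.19 against 56.2 ± 7.36 CPM (log2 difference -0.71, adjusted p = 0.000696, and 0.0183 without line 1292). Nlrp10 rose in fl/fl (log2 fold change 1.25 with SE 0.31 and adjusted p = 0.00444) and had -0.65 in ΔIEC (adjusted p = 0.287). Treated fl/fl cultures 1 to 4 held 11.9, 12.8, 6.57 and 6.89 CPM of Nlrp10, on 30, 55, 35 and 23 counts. Treated ΔIEC cultures 1 to 4 held 0.405, 1.42, 2.72 and 2.60 CPM, on just 1, 5, 9 and 9 counts. These groups did not overlap, and the log2 difference between them was -2.31 (SE 0.36, adjusted p = 9.75e-05). The rise in fl/fl had an adjusted p of 0.283 without line 1293, and 0.0181, 0.0119, 0.0117 and 0.0202 without untreated cultures 1 or 4 or treated cultures 1 or 2. Nlrp1b, with 6 to 23 counts per culture, had a log2 fold change of -1.06 in fl/fl (adjusted p = 0.00974), a call that 20 of 28 alternatives did not keep (DESeq2 adjusted p = 0.0258). Its value in ΔIEC was -0.11 (adjusted p = 0.818). Nlrp3 had 0 counts in all 16 cultures.

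For Pycard, the adaptor gene, untreated fl/fl cultures 1 to 4 held 198, 186, 165 and 165 CPM, and treated ones 238, 215, 201 and 185 CPM. In ΔIEC the untreated cultures held 206, 179, 175 and 169 CPM, and the treated ones 223, 242, 160 and 178 CPM. The treated and untreated ranges overlapped in both genotypes, and in ΔIEC the 2 highest treated values came from line 1290. The log2 fold change with IL-22 was 0.23 in fl/fl (SE 0.11, adjusted p = 0.135; exact permutation p = 0.0857) and 0.14 in ΔIEC (SE 0.12, adjusted p = 0.426). With the line as a block, the fl/fl value was 0.23 (SE 0.07) with an adjusted p of 0.00902 and passed. Between genotypes the log2 difference of Pycard was 0.03 untreated (adjusted p = 0.882) and -0.06 with IL-22 (adjusted p = 0.705). Exons of the antisense gene Gm45205 overlap 485 bases of Pycard, and reads of the pair cannot be told apart there: the methods name a stranded library protocol, the labels another kit (TruSeq RNA v2), and the strand setting of the counting is not given in the sources used here.

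Casp1, the gene of the caspase that matures IL-18, held 72.8, 95.2, 92.5 and 97.1 CPM in untreated fl/fl cultures 1 to 4, and 72.5, 56.8, 64.4 and 73.1 CPM in treated ones. Untreated culture 1 stood apart below the other untreated cultures and lay within the range of the treated ones, and the groups overlapped there. On the log2 scale the change was -0.43 (SE 0.13, adjusted p = 0.0167; exact permutation p = 0.0571), which missed the threshold. With the line as a block it was -0.44 (SE 0.11, adjusted p = 0.00101), and without untreated culture 1 it was -0.52 (adjusted p = 0.00564). It also passed by limma-voom (adjusted p = 0.00302), with no filter on low counts (0.00138), and in the shared fit without treated ΔIEC culture 1 (0.00249) or without line 1290 (0.00453). In ΔIEC, cultures 1 to 4 held 74.0, 67.2, 62.7 and 66.5 CPM untreated and 94.8, 62.2, 58.3 and 63.1 CPM treated. Treated culture 1 was the highest of the ΔIEC cultures and the other 3 treated ones lay at the lower end of the untreated range or below it, with a change of 0.02 on the log2 scale (SE 0.14, adjusted p = 0.922). The interaction was 0.45 on the log2 scale (SE 0.19, adjusted p = 0.586, and 0.122 with the line as a block). Untreated Casp1 differed between genotypes by -0.40 (SE 0.13, adjusted p = 0.0400), which did not pass, and passed at 0.00839 without treated ΔIEC culture 1 and at 0.00950 with no filter on low counts.

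Casp4, which encodes caspase-11, had the largest IL-22 fold change of the 5 tested members in each genotype. Within line 1292 alone, Casp4 (0.93 on the log2 scale) did not exceed Gsdmd (0.94). Untreated fl/fl cultures 1 to 4 held 9.35, 9.95, 4.99 and 6.42 CPM, and treated ones 27.7, 19.6, 22.1 and 21.9 CPM. Untreated ΔIEC cultures held 5.66, 8.12, 11.3 and 11.6 CPM, and treated ones 25.9, 17.9, 20.6 and 24.3 CPM. In both genotypes each treated culture lay above each untreated culture. Casp4 rose 2.85-fold in fl/fl (log2 fold change 1.51 with SE 0.22 and adjusted p = 2.46e-05) and 2.51-fold in ΔIEC (1.33, SE 0.22, adjusted p = 0.000111), with an exact permutation p of 0.0286 in each, the smallest that 4 against 4 cultures allow. Without line 1290, which leaves 1 ΔIEC line, the log2 fold change in ΔIEC was 0.97 (adjusted p = 0.0198). The untreated lines differed in opposite ways: in fl/fl line 1294 was the lower (5.70 against 9.65 CPM), and in ΔIEC line 1290 was the lower (6.89 against 11.4 CPM). After treatment the line means lay between 21.9 and 23.7 CPM. The interaction was -0.19 (adjusted p = 0.961), and the genotypes differed by 0.15 untreated (adjusted p = 0.715) and -0.04 with IL-22 (adjusted p = 0.903). Counts of Casp4 ranged from 11 to 118 per culture.

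Among the 14 tested genes of the 20 listed as adaptor, caspases and cofactors, which include Pycard, Casp1 and Casp4, 4 rose in fl/fl and 5 in ΔIEC (medians 0.20 and 0.13 on the log2 scale). Besides Casp4, Casp8 rose from 154 ± 15.8 to 347 ± 25.0 CPM in fl/fl and from 125 ± 9.34 to 257 ± 36.5 CPM in ΔIEC. Casp8 encodes an initiator caspase of death receptor signalling that can also cleave gasdermin D. Serpinb1a, an inhibitor of inflammatory proteases, rose from 296 ± 57.6 to 781 ± 34.7 CPM and from 225 ± 20.6 to 599 ± 79.6 CPM. Casp12, a neighbour of Casp1 and Casp4 on chromosome 9, had 2 to 30 counts per culture and rose by 1.74 (adjusted p = 0.000583) and 1.76 (adjusted p = 0.00446) on the log2 scale. In ΔIEC 11 of 28 alternatives did not keep the Casp12 call, among them DESeq2 (adjusted p = 0.0180) and each line left out (0.109 without 1290, 0.0719 without 1292), and untreated cultures 1 and 2 (0.0238 and 0.0158) or treated cultures 1, 3 and 4 (0.0106, 0.0134 and 0.0136) left out singly. In fl/fl it was 0.0270 without line 1293 and 0.0103 without line 1294. Irf1, a transcription factor gene of interferon responses, rose in ΔIEC (log2 fold change 0.77, adjusted p = 9.38e-06) and had 0.30 in fl/fl (adjusted p = 0.0296, and 0.00372 with the line as a block). Dpp9, an inhibitor of NLRP1, had 0.30 in fl/fl (adjusted p = 0.0441) and 0.38 in ΔIEC (adjusted p = 0.0124, and 0.00168 with the line as a block).

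Of the same list, 2 genes passed as higher (Nek7 and Panx1) and 1 as lower (Txnip) in untreated ΔIEC organoids, and 2 as higher (Dpp9 and Panx1) and 2 as lower (Casp8 and Txnip) in treated ones. The untreated differences of Nek7 (0.59, adjusted p = 0.00788) and Panx1 (0.54, adjusted p = 0.00883) were each lost in 16 of 28 alternatives, among them limma-voom (0.0227 and 0.0220) and line 1292 left out (0.0307 and 0.0121). Panx1 differed by 0.87 with IL-22 (adjusted p = 0.000125, and 0.0107 without line 1290). Over all 16 cultures Txnip, whose product binds thioredoxin, had the highest mean level per kb of the list (231 CPM per kb, with 206 for Serpinb1a). Among treated cultures Serpinb1a lay above Txnip per kb in both genotypes. Txnip had 865 ± 75.0 CPM in untreated fl/fl and 558 ± 47.9 CPM in untreated ΔIEC. With IL-22 it had 949 ± 60.6 and 512 ± 102 CPM. The log2 differences were -0.63 (adjusted p = 0.000662, and 0.0132 without line 1293) and -0.89 (adjusted p = 1.35e-05). Casp8 differed by -0.43 with IL-22 (adjusted p = 0.00199, with 0.0525 without line 1290 and 0.0164 without line 1293). Dpp9 differed by 0.49 with IL-22 (adjusted p = 0.00195), a call lost without line 1293 (0.0297) or 1292 (0.0253), without treated fl/fl culture 1, 2 or 3 (0.0122, 0.0109 and 0.0114) and without treated ΔIEC culture 2 (0.0109.

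Gsdmd, the pore-forming substrate of caspase-1 and caspase-11, held 179, 172, 121 and 158 CPM in untreated fl/fl cultures 1 to 4, and 215, 234, 252 and 231 CPM in treated ones. In ΔIEC it held 87.7, 99.7, 124 and 126 CPM untreated, and 176, 190, 249 and 233 CPM treated. All treated cultures lay above the untreated cultures of their genotype, and in ΔIEC both treatments were higher in line 1292 than in line 1290. Gsdmd rose 1.47-fold in fl/fl (log2 fold change 0.56 with SE 0.13 and adjusted p = 0.00245) and 1.95-fold in ΔIEC (0.97, SE 0.13, adjusted p = 1.67e-05), each with an exact permutation p of 0.0286. Without line 1294 the fl/fl value was 0.36 (adjusted p = 0.152). The interaction was 0.41 (SE 0.19, adjusted p = 0.655, and 0.0886 with the line as a block), and did not pass.

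Untreated Gsdmd was lower in ΔIEC, 110 ± 18.9 against 158 ± 25.9 CPM, a log2 difference of -0.54 (SE 0.13, adjusted p = 0.00755). The ranges overlapped, because fl/fl culture 3 (121 CPM) lay below ΔIEC cultures 3 and 4, and the exact permutation p was 0.0857. This call was lost in 10 of 28 alternatives. Without line 1290 the difference was -0.34 (adjusted p = 0.107) and without line 1293 it was -0.38 (adjusted p = 0.145). Leaving out untreated fl/fl culture 1, 2 or 4 gave adjusted p-values of 0.0292, 0.0284 and 0.0138, and leaving out untreated ΔIEC culture 1 or 2 gave 0.0374 and 0.0302. Without treated fl/fl culture 2 it was 0.0102. With IL-22 the difference was -0.14 (SE 0.13, adjusted p = 0.438).

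Gsdmc2, Gsdmc3 and Gsdmc4, clustered on chromosome 15, were at the limit of detection in small intestinal organoids with and without IL-22. Gsdmc2 had 0 counts in 16 cultures. Gsdmc3 had 3 counts in all, 1 in untreated fl/fl culture 4 and 2 in treated fl/fl culture 4. Gsdmc4 had 6 counts, 1 in each of 6 cultures. A floor of 3 counts, taken as the level that a count of 0 allows, corresponds to 0.563 to 1.36 CPM depending on depth. Per kb this is 0.243 to 0.587 CPM for Gsdmc2, 0.242 to 0.584 for Gsdmc3 and 0.270 to 0.652 for Gsdmc4. In the cultures where Gsdmc3 or Gsdmc4 had a count, counting error allows higher levels than these. No fold is given, as all groups lie at or under the floor of 3 counts, which covers counting error only. The paralogs share sequence: 28.6% of the 100-base windows of Gsdmc2 transcripts, 28.4% of those of Gsdmc3 and 20.2% of those of Gsdmc4 also occur in another gene, so counting of single-place reads can miss part of their RNA. For the 5 tested members this share was 0%.

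Of the 11 listed gasdermins and pore partners 3 were tested. Gsdmd rose in both genotypes, and Ninj1, whose product ruptures the plasma membrane of dying cells, fell in ΔIEC from 23.5 ± 2.70 to 13.8 ± 3.82 CPM (log2 fold change -0.73 with SE 0.19 and adjusted p = 0.00564). Ninj1 had -0.21 in fl/fl (adjusted p = 0.414). Its call in ΔIEC was lost without line 1290 (adjusted p = 0.0468), without line 1292 (0.0625), and without untreated ΔIEC culture 2, 3 or 4 (0.0165, 0.0149 and 0.0181) or treated ΔIEC culture 1 or 4 (0.0141 and 0.0119). Gsdmc, Gsdma2 and Gsdma3 had 0 counts in all cultures, and Gsdma had 91 counts in all.

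Il18, the cytokine that caspase-1 matures, held 32.7, 27.1, 28.1 and 23.5 CPM in untreated fl/fl cultures 1 to 4, and 51.5, 47.2, 55.0 and 51.5 CPM in treated ones. In ΔIEC it held 23.3, 22.6, 15.3 and 14.5 CPM untreated, and 65.6, 46.6, 23.6 and 34.7 CPM treated. Treated and untreated cultures did not overlap in either genotype, though treated ΔIEC culture 3 exceeded the highest untreated one only narrowly. The treated ΔIEC cultures spread more widely (23.6 to 65.6 CPM) than the treated fl/fl cultures (47.2 to 55.0 CPM), with line 1290 above line 1292 in both treatments. Il18 rose 1.85-fold in fl/fl (log2 fold change 0.89 with SE 0.21 and adjusted p = 0.00318) and 2.14-fold in ΔIEC (1.10, SE 0.23, adjusted p = 0.00106), each with an exact permutation p of 0.0286. In fl/fl the call was lost without untreated culture 4 (0.81, adjusted p = 0.0133), without line 1293 (1.09, adjusted p = 0.0191) and without line 1294 (0.72, adjusted p = 0.123). The interaction was 0.21 (SE 0.31, adjusted p = 0.946).

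Untreated Il18 averaged 18.9 ± 4.68 CPM in ΔIEC and 27.9 ± 3.79 CPM in fl/fl. The cultures of the genotypes did not overlap, the highest ΔIEC value (23.3 CPM) lying just under the lowest fl/fl value (23.5 CPM), with an exact permutation p of 0.0286. Across all genes the difference of -0.51 on the log2 scale (SE 0.24, adjusted p = 0.138) did not pass. With IL-22 the difference was -0.29 (SE 0.20, adjusted p = 0.287) and the groups overlapped. It depended on the ΔIEC line: without line 1290 it was -0.82 (adjusted p = 0.00256), and without line 1292 it was 0.11 (adjusted p = 0.589).

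In the IL-1 family, with ligands, receptors and inhibitors, 6 of 17 listed genes were tested, Il18 included. Of these 2 rose in fl/fl and 3 in ΔIEC (medians 0.63 and 0.87 on the log2 scale). Il33, an alarmin of the family, rose from 44.1 ± 15.8 to 167 ± 24.0 CPM in fl/fl and from 23.4 ± 2.86 to 121 ± 36.6 CPM in ΔIEC (log2 fold changes 1.90 and 2.39). Untreated Il33 was lower in ΔIEC (-0.95, adjusted p = 0.00995), a call lost under RLE scaling (adjusted p = 0.0102), by limma-voom (0.0395), and without line 1290 (0.0736), 1292 (0.0135) or 1293 (0.287). It was also lost without most single cultures, among them untreated fl/fl culture 1 (0.0493) and 2 (0.0317). Il18bp, which encodes a secreted decoy that binds IL-18, rose in ΔIEC from 2.11 ± 1.29 to 7.41 ± 1.12 CPM (log2 fold change 1.76 with SE 0.34 and adjusted p = 0.000535, and 0.0334 without line 1292). In fl/fl Il18bp had 2.41 ± 0.750 and 3.84 ± 1.14 CPM (0.74, adjusted p = 0.122), and the interaction was 1.02 (adjusted p = 0.704). Its counts were low, from 3 to 31 per culture. Il1b had 0 counts in all cultures.

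**Figure D2:**
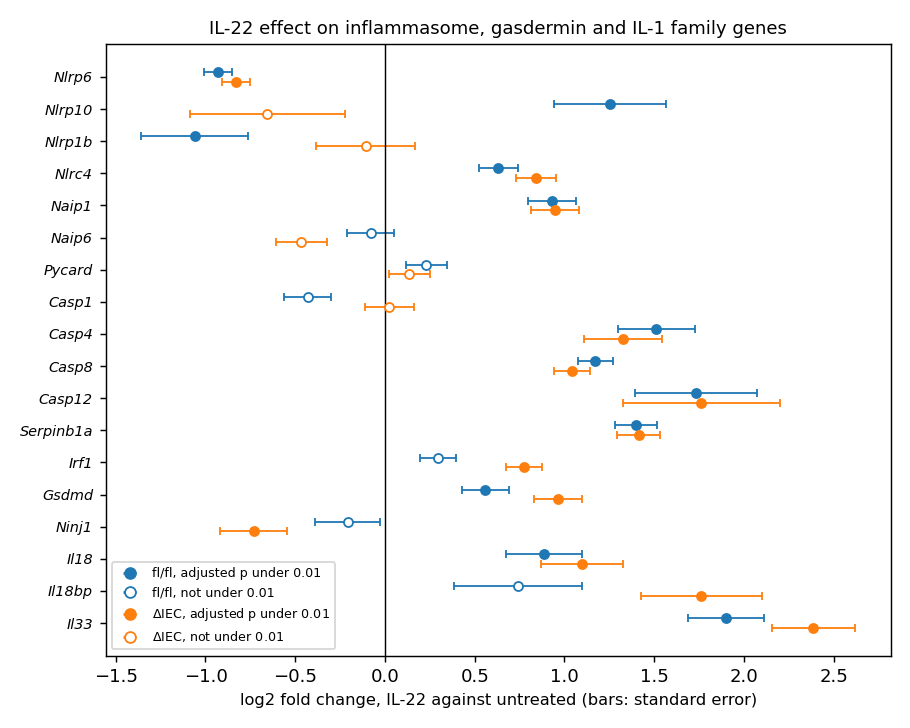
Log2 fold change of IL-22-treated against untreated cultures (horizontal axis, bars are standard errors) for the 5 tested members and the named genes of the pathway lists (vertical axis), in fl/fl and in ΔIEC. Filled points passed an adjusted p of 0.01; Casp4 has 1.51 and 1.33, Il18 0.89 and 1.10, and Gsdmd 0.56 and 0.97.

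Within each line, the IL-22 effect was the difference of mean log2 CPM between the 2 treated and the 2 untreated cultures. For Casp4 it was 1.23 in line 1293, 1.85 in 1294, 1.59 in 1290 and 0.93 in 1292. For Gsdmd it was 0.35, 0.80, 0.96 and 0.94 in the same order. For Il18 it was 0.72, 1.03, 1.25 and 0.92. All 3 genes were thus higher with IL-22 in each of the 4 lines. Casp1 had -0.37 and -0.46 in the fl/fl lines against 0.12 and -0.09 in the ΔIEC lines, and Pycard had 0.24, 0.23, 0.27 and -0.03.

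The genes most like each member were taken by Pearson's r of log2 CPM over the 16 cultures, which share treatment, genotype and line, so that r is a description. Casp4 was most like Nfkbia (r = 0.967), Ly6a (0.966) and Skap2 (0.962), which rose with IL-22 in both genotypes. Gsdmd was most like Capns1 (0.968), Gsn (0.96) and Ms4a8a (0.957), which rose in both as well. Il18 was most like Rfk (0.948), Cd38 (0.947) and Lpgat1 (0.918). Of these Cd38 rose in both genotypes, with log2 fold changes of 0.97 and 1.19, and Rfk and Lpgat1 in ΔIEC (0.53 and 0.45, with adjusted p = 0.0104 and 0.0629 without line 1290). Without line 1294 the fl/fl rise of Capns1 had an adjusted p of 0.0103 and that of Ms4a8a 0.0695. Pycard was most like its antisense neighbour Gm45205 (0.911), then Nemf (0.791) and Ndufs4 (0.789). Casp1 was most like Gmfb (0.835), Tprkb (0.826) and Zfas1 (0.822). Of these Tprkb and Zfas1 fell with IL-22 in fl/fl, with log2 fold changes of -0.60 and -0.55 (adjusted p = 0.00449 and 0.000658, lost in 10 and 2 of 29 alternatives). In ΔIEC they had -0.31 and -0.13 and did not pass, and Gmfb did not pass in either genotype.

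Markers of cell types differed with IL-22 and with genotype, and within some lists they went both ways. All 10 epithelial markers were expressed, summing to 9194 ± 1172 and 12240 ± 872 CPM in untreated and treated fl/fl and to 8912 ± 663 and 11150 ± 1254 CPM in ΔIEC, with Krt8 the most abundant. Of these 5 rose with IL-22 in fl/fl (Cdh1, Krt8, Krt18, Krt20 and Cldn7, the calls lost in 0 to 7 of 29 alternatives) and 2 in ΔIEC (Krt20 and Lgals4, lost in 1 and 3). The sum of 9 enterocyte markers was 3985 ± 213 CPM in untreated and 1410 ± 189 CPM in treated fl/fl. In ΔIEC it was 4009 ± 327 and 1581 ± 412 CPM, with 1959, 1916, 1245 and 1204 CPM in treated cultures 1 to 4. Alpi was the most abundant of them. Among treated cultures Apoa4, Fabp2 and Anpep were higher in ΔIEC (1.29, 1.54 and 1.72 on the log2 scale) and 0 markers were lower. These calls were lost in 11, 3 and 9 of 28 alternatives, and without line 1290 the differences were 0.12, 0.71 and 0.28. Untreated Fabp2 was higher in ΔIEC (1.25) and Slc5a1 lower (-0.60), lost in 4 and 2 of 28. The sum of 6 stem cell markers was 1913 ± 173 and 950 ± 51.0 CPM in fl/fl, and 2456 ± 113 and 1116 ± 153 CPM in ΔIEC, with Slc12a2 the most abundant. Of the stem cell markers Olfm4 was higher in ΔIEC (584 against 144 CPM untreated, and called in each treatment), as were Ascl2 (1.23 untreated and 1.21 treated on the log2 scale) and Smoc2 (0.35 and 0.38, each lost in 12 of 28 alternatives), and among treated cultures Lgr5 was lower in ΔIEC than in fl/fl (-0.86 on the log2 scale, adjusted p = 0.00672, lost in 9 of 28 alternatives). The sum of 8 Paneth cell markers was 6718 ± 1132 and 8347 ± 1051 CPM in fl/fl against 3659 ± 497 and 4397 ± 381 CPM in ΔIEC, with Defa24 the most abundant, and that of 8 goblet cell markers 2761 ± 685 and 2609 ± 523 against 1770 ± 260 and 1335 ± 322 CPM, with Fcgbp the most abundant. With IL-22, 2 of 8 Paneth cell markers rose in each genotype (Mmp7 and Pla2g2a), and of the goblet cell markers Muc2 and Agr2 rose in each, while Spdef rose and Zg16 fell in fl/fl (lost in 11 and 19 of 29 alternatives) and Tff3 and Fcgbp fell in ΔIEC (lost in 7 and 2 of 29). The sum of 8 enteroendocrine markers, mostly Chgb, was 486 ± 134 CPM in untreated and 585 ± 82.2 CPM in treated fl/fl. In ΔIEC it was 308 ± 67.8 and 341 ± 123 CPM. Chga was lower in untreated ΔIEC (lost in 15 of 28 alternatives). Chga, Chgb and Gcg were lower in treated ΔIEC (lost in 1 of 28, 12 of 28 and 15 of 27), and Gcg rose with IL-22 in fl/fl (lost in 17 of 28). The 7 tuft cell markers summed to 13.8 to 36.6 CPM. Avil, the most abundant of them, rose in both genotypes (log2 fold changes 1.82 and 1.81, each lost in 1 of 28). Whether these shifts have a part in the levels of the members was not tested.

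Immune cells express many inflammasome genes, and most of their markers had few counts. The 12 immune markers summed to 13.2 to 115 CPM per culture, of which Cd74, an antigen presentation gene that epithelium also expresses, was the most abundant (27.5 CPM on average) and rose with IL-22 in both genotypes. In ΔIEC cultures 1 to 4 it held 1.18, 4.43, 12.1 and 18.3 CPM untreated and 13.4, 10.5, 98.5 and 88.5 CPM treated, so that line 1292 was far above line 1290. The rise of Cd74 was lost in 3 of 28 alternatives in fl/fl and in 6 of 28 in ΔIEC. Csf1r had 20 to 58 counts in every culture (7.66 to 9.63 CPM in the group means) and did not pass in any comparison. Cd68 had a log2 fold change of 1.18 in fl/fl (adjusted p = 0.0114), which did not pass, and Itgam and Lyz2 had at most 17 and 16 counts. Cd3e had 0 counts in every culture, and Ptprc, Adgre1, Tyrobp, Fcer1g and Laptm5 had at most 3. The 10 stromal markers summed to 1.62 to 6.80 CPM, with Vim the most abundant and Dcn at 0.

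Promoter windows of 300 bases, from 250 before to 50 after the start of a gene, were searched on both strands for the STAT-type motif TTCNNNGAA, for TTC and GAA with 4 bases between them, and for the interferon-type motif of GAAA and GAAA with 2 bases between them. Windows came from RefSeq on GRCm38.p6. Of 32851 promoters, 8.3% hold TTCNNNGAA, 6.95% the motif with 4 bases, 3.44% the interferon-type motif and 0.679% hold both of the first pair. Windows were found for 5 of 8 members, and the table has none for Gsdmd, Gsdmc2 and Gsdmc4. The windows of Casp1, Casp4, Pycard and Gsdmc3 hold no match of the 3 motifs. The Il18 window, at chr9:50554450-50554749 on the plus strand, holds 1 TTC and GAA with 4 bases between them, from base 205 of the window. It is shown because Il18 rose in both genotypes, next to the window of Casp12 at chr9:5345226-5345525 (plus strand, 2 TTCNNNGAA, from bases 149 and 215), which rose as well, and that of Casp4 at chr9:5308599-5308898 (plus strand), the tested member with the largest fold change. Socs3, a known STAT3 target, serves as a reference, at chr11:117969317-117969616 on the minus strand with 1 TTCNNNGAA from base 97. Other list genes that rose, such as Casp8, Serpinb1a, Il33, Nlrc4 and Naip1, are not shown, and their matches are not given here. Capitals mark the matches, and a match or its absence describes letters in the window only.
Il18: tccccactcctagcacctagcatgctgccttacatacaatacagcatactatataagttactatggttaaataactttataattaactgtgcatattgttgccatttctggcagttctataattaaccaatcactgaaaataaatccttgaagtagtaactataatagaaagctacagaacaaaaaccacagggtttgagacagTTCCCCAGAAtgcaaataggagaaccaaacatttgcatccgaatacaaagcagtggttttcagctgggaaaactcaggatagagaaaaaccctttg
Casp12: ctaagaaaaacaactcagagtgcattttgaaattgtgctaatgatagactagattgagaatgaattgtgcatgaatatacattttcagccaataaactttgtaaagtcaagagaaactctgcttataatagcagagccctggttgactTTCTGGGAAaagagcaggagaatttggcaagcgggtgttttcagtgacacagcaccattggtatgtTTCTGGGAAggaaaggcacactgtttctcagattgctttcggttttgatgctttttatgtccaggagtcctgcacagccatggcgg
Casp4: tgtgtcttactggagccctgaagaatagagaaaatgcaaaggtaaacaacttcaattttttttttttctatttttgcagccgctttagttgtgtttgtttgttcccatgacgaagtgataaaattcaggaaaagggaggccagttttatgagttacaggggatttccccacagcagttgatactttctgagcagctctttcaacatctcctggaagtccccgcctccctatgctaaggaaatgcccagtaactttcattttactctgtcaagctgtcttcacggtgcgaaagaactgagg
Socs3: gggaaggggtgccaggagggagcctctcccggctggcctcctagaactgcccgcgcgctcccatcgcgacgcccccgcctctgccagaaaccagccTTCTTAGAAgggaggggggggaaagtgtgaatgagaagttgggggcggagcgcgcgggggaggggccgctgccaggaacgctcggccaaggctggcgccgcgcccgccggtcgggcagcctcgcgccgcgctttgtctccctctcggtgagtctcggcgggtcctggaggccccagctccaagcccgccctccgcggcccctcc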

How the data were processed

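RNA from 16 organoid cultures was sequenced as paired reads of 150 bases. Per the labels and the methods, the authors trimmed reads with cutadapt, aligned them to mm10 (GRCm38) with TopHat2, counted them per gene with HTSeq, and deposited whole-number counts, which were used here as deposited. Strand setting, annotation release and tool versions are not given in the sources used here. Reads on genes made up 36.3% to 38.3% of each library. Lines of the table that name no gene, with 38.0% to 40.1% of reads on no gene, 21.5% to 24.2% aligned to several places and 0.740% to 1.13% on several genes, were left out of library sizes and tests. Of 49585 gene identifiers 49326 (99.48%) matched a symbol. Exon lengths, with all annotated transcripts of a gene merged, came from the GENCODE annotation of GRCm38.

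Genes were filtered with filterByExpr and scaled by TMM in edgeR 4.0.16 (R 4.3.3), and 1 quasi-likelihood fit of the 4 group means gave two-sided F tests, adjusted by Benjamini-Hochberg over 12559 genes (threshold 0.01). SE came from the log2 fold change over the root of F. The study used DESeq2, with a likelihood ratio test for the interaction; DESeq2 1.42.0 was an alternative here. CPM used effective library sizes, and log2 CPM a prior count of 2. Exact permutation tests on log2 CPM were two-sided over 70 splits, with a smallest possible p of 0.0286. Counts per culture ranged from 2135000 to 5574860, and counting error and floors do not cover other errors.

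Alternatives were DESeq2, RLE scaling, no filter, at least 10 counts in every culture, the line as a block, cultures of a line summed, limma-voom (limma 3.58.1) with a correlation within lines (0.261), an adjusted p under 0.05, a fit of just the compared groups, thinning all libraries to the depth of the smallest, each culture or line left out, and a prior count of 0.5. Line numbers come from the labels. Deviations from the group means correlated between treated and untreated cultures of the same line (0.263 to 0.438 in fl/fl, 0.0563 to 0.321 in ΔIEC, 8 pairs each) and were negative between lines (-0.435 to -0.218 and -0.352 to -0.0779). No pair of replicates held identical counts.

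Named genes were all 8 members; Atg16l1, Reg3b, Reg3g and Socs3; from each pathway list, genes past the threshold in a comparison, at most the 6 with the largest IL-22 fold change, and the best expressed gene; and the 3 genes most like each tested member. Nek7, Panx1 and genes named for having 0 or few counts, Gsdma among them, fall outside this rule and were named after their values were seen. The same holds for marker genes, which were named by abundance, by a call or by their counts. The values of 1 gene of the marker lists are not reported here. The alternatives for Nek7, Panx1 and the marker genes were added after values were seen. The members and lists were chosen with earlier results of these data known. The shares of all genes for groups that do not overlap and for the fit with the line as a block, and the limit of alternatives for the most alike genes to the IL-22 comparisons, were set after values were seen. The test steps were tested on simulated counts with per-gene dispersions estimated from the deposited counts.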

Additional observations from a re-analysis of the deposited data

Results flagged for a closer look

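In 20 groups of 4 cultures, 5 tested members in 4 groups, the gap between the most extreme culture and its nearest neighbour was examined. It was compared with the whole range of the group, both on log2 CPM. Chance alone marks about 1 in 20 groups in this way. The ratio exceeded the critical value of Dixon's test for 4 values in 2 groups, both of Casp1. In untreated fl/fl organoids culture 1 (72.8 CPM) lay below the other 3 cultures (92.5 to 97.1 CPM), with a ratio of 0.831. In IL-22-treated ΔIEC organoids culture 1 (94.8 CPM) lay above the other 3 (58.3 to 63.1 CPM), with a ratio of 0.839. Both ratios, which are on log2 CPM, are only just above the critical value. On the CPM values printed here the untreated fl/fl group would not exceed it. No member had an interaction that passed the threshold in edgeR.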

How the results depend on the processing

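Each result was computed again under up to 30 alternatives. In fl/fl 3 members passed with IL-22; with the line as a block it was 5 (Pycard and Casp1 added), with the cultures of a line summed 0, and without line 1294 it was 1, with 2 to 4 when 1 culture was left out. Apart from Casp1 and Pycard in fl/fl, Naip6 and Dpp9 in ΔIEC, and Irf1 and Rfk in fl/fl, the block changed no call of a named gene. Of the genes in the pathway lists other than members 9 passed in fl/fl, 4 with cultures summed, 5 without line 1293, and 7 to 9 with 1 culture left out. In ΔIEC 3 members passed, 0 with cultures summed and 3 with any culture left out, and 10 list genes passed, 6 with cultures summed and 8 to 12 with 1 culture left out. Summing leaves 2 values per group.

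For untreated organoids 1 member differed between genotypes. It was 2 with no filter, 2 at an adjusted p under 0.05, 0 with cultures summed, 0 in a fit restricted to those groups, 0 without line 1290, 0 without line 1293, and 0 to 2 with 1 culture left out. Of list genes 4 differed, 0 with cultures summed, 1 by limma-voom, 2 after thinning, 2 in the restricted fit, 1 without line 1290, 1 without line 1292, 7 at 0.05, and 1 to 4 with 1 culture left out. Among treated organoids 0 members differed, 1 (Il18) without line 1290 and 0 with any culture left out, and 6 list genes, 10 with no filter, 0 with cultures summed, 15 at 0.05, and 5 to 7 with 1 culture left out. The interaction called 0 members and 0 list genes under every alternative.

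Over all genes, 2608 passed in fl/fl (539 with cultures summed, 1622 without line 1293, 1075 without line 1294, 4057 at 0.05) and 2195 in ΔIEC (631 with cultures summed, 1186 without line 1290, 919 without line 1292, 3500 at 0.05). For untreated organoids 1226 differed between genotypes (6 with cultures summed, 777 by limma-voom, 1840 with no filter, 456, 695 and 532 without line 1290, 1292 or 1293, 2559 at 0.05, and 641 to 1425 with 1 culture left out). For treated ones 2481 differed (182 with cultures summed, 953 without line 1290, 4168 at 0.05). The interaction had 2 (15 by DESeq2, 80 with no filter, 56 with the line as a block, 5 by limma-voom, 1 under RLE scaling, 1 with at least 10 counts in every culture, 0 with cultures summed, 0 after thinning, 1, 1, 0 and 4 without lines 1290, 1292, 1293 and 1294, and 0 to 3 with 1 culture left out).

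Direction changed for small differences that had not passed. The treated genotype difference of Il18 was 0.1123 without line 1292, and its interaction ran from -0.0459 to 0.4157 with 1 culture left out. Casp1 in ΔIEC was -0.0102 by limma-voom and -0.0896 without line 1290 (-0.1484 to 0.0979 with 1 culture left out), and its treated genotype difference was -0.1338 without line 1290 and -0.0189 without line 1293 (-0.115 to 0.1306). The Casp4 interaction was 0.1332 without line 1292 and 0.0766 without line 1294, its untreated genotype difference -0.1992 and -0.1488 without the same lines, and its treated one ran from -0.1279 to 0.0523. Pycard in ΔIEC was -0.0258 without line 1290, and its interaction 0.0431 without line 1292. Its untreated genotype difference was -0.0170 after thinning, -0.0611 without line 1290 and -0.0709 without line 1294 (-0.0354 to 0.0858), and its treated one 0.1499 without line 1292 and 0.0242 without line 1293 (-0.1709 to 0.0313). Gsdmd among treated organoids was 0.0384 without line 1290. Atg16l1 in ΔIEC, -0.4367 in the fit of all cultures, was 0.5085 without line 1292, -3.018 without line 1290, which did not pass, and -2.5072 without treated ΔIEC culture 2, where it passed (adjusted p = 0.004112; -2.507 to -0.052 with 1 culture left out). Nlrp1b in ΔIEC was 0.1173 without line 1292 (-0.2764 to 0.0714 with 1 culture left out). Naip6 in fl/fl was 0.0618 (-0.1765 to 0.0303) and Txnip in fl/fl -0.0211 without line 1294. The causes were not tested.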

Other observations

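These results rest on 2 organoid lines per genotype with 2 cultures per treatment, so the line is the larger unit and its number is small. With the cultures of a line summed, 0 members passed in either IL-22 comparison, with log2 fold changes close to those above (Casp4 1.5031 in fl/fl and 1.2977 in ΔIEC). Differences between genotypes cannot be told apart from differences between lines. RNA levels say nothing on cleavage of caspases, gasdermin D or IL-18, and 1 dose and 1 time were examined. Gsdmc2, Gsdmc3 and Gsdmc4 were at the limit of detection at this depth, and shared sequence can lower what is counted for them, which was not measured.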
